A study of Mus musculus with 6 samples.

Results

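The genes examined make, break down or control the polyamines putrescine, spermidine and spermine in mouse T cell acute lymphoblastic leukemia. They were chosen by name, as 10 genes centred on Odc1, and every probe set whose single annotated gene symbol was one of them was taken. This gave 7 probe sets of 6 genes, out of 21789 single-symbol probe sets of 19938 genes. Odc1 had 2 probe sets, and Srm, Azin1, Oaz2, Sat1 and Smox had 1 each. Oaz1 and Sms lay only on probe sets that carry a second symbol, Oaz1-ps and Gm8234, and got no value. The annotation used here names no probe set for Amd1 or Paox, which were not analysed.

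Gene expression had been measured on 6 arrays, in leukemias named lines 14843, 14844 and 14846. Each line was a separate leukemia, made by retroviral transfer of the Notch intracellular part (Notch-IC) into mouse blood progenitors with a Zfx fl/y allele and the tamoxifen-inducible Cre-ER transgene, so both groups carry all of these. The Tamoxifen group (genotype label ZFX null, n = 3) came from irradiated secondary recipients gavaged with 5 mg of tamoxifen a day for 3 days from day 10 after transplant, and the Vehicle group (ZFX flox, n = 3) from recipients given Vehicle. Leukemia cells, marked by GFP, were collected by flow sorting 48 h after dosing ended, and each line gave 1 array per group. The sources used here give no host strain, age or Cre-ER promoter. No group received tamoxifen without Cre-ER or without the floxed allele, so the drug, Cre activity and loss of Zfx cannot be told apart.

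Polyamines are small positively charged molecules that bind nucleic acids and that dividing cells need for growth. Ornithine decarboxylase (Odc1) makes putrescine from ornithine, and spermidine synthase (Srm) and spermine synthase (Sms) extend it with groups supplied by S-adenosylmethionine decarboxylase (Amd1). Antizymes (Oaz1, Oaz2) bind Odc1 and send it to the proteasome, and the antizyme inhibitor Azin1, an Odc1 relative without the enzyme activity, binds the antizymes. Spermidine/spermine acetyltransferase (Sat1), spermine oxidase (Smox) and polyamine oxidase (Paox) run the path backwards. Odc1 is a classic target of Myc, which Notch drives in this leukemia. Much of the control of these proteins lies in translation and protein turnover, which an RNA array does not measure.

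The sequence before the start is shown for the enzyme that begins synthesis and for the enzyme that begins breakdown. The pair was picked with its treatment differences known, and neither gene was called. Zfx is a transcription factor, but a link of its sites to these differences was not tested. The sequences are RefSeq's, on GRCm38.p6, run 5′ to 3′ and end at the last base before the annotated gene. For Sat1 that is the start used by the promoter table, and 250 bases are shown. For Odc1 the table uses a start 65 bases inside the annotated gene, so 185 bases are shown. Capitals mark AGGCCT, the core of reported Zfx sites, and the GC box GGGCGG or its reverse complement CCGCCC.
Odc1, chr12:17544623-17544807, plus strand: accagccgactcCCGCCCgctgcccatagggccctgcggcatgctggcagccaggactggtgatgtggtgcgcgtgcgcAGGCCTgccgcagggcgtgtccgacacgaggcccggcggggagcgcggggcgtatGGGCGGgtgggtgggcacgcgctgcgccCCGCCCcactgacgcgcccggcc
Sat1, chrX:155216450-155216699, minus strand: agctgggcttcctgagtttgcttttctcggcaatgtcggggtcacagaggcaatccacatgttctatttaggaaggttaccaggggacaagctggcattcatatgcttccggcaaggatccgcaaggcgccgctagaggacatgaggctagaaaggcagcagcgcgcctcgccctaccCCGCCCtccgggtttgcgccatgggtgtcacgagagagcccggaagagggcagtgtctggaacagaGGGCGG

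The Odc1 stretch was 77.8% G and C and held 24 CpG pairs, and the Sat1 stretch was 59.6% G and C with 15 CpG pairs. A search for 6 motifs on both strands covered the table's whole windows, from 250 bases before to 50 after its start, for 8 of the 10 genes. AGGCCT was found before Odc1, at -171 to -166 from the table's start, and before Sms, and not in the windows of the other 6 genes. The 8 genes have 10 windows in the table. AGGCCT was in 2 of these 10, and it occurs in 10.3% of all 32851 promoter windows. The GC box was found in 8 of the 10 windows, those of 7 of the 8 genes, and in 35.7% of all windows. The E-box CACGTG, the site of Myc, was found before Sms and in 7.15% of all windows. It was not found in the Odc1 window, which ends 50 bases after the table's start, and sites further into the gene were not searched. TATAAA was in the Oaz1 window (13.6% of all windows), CCAAT in the Oaz1 and Sms windows (37.4%), and TGACGTCA in none of the 8 (1.79%). Such matches describe the letters and do not show binding. No promoter of Srm or Azin1 was used here.

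Values below are log2 of the deposited intensity. Zfx itself, the gene to be deleted, was at 10.96, 10.98 and 10.86 in Tamoxifen arrays of lines 14843, 14844 and 14846, against 10.98, 10.90 and 10.72 in their Vehicle arrays. The sources used here do not give the positions of its probes, and a probe set outside the deleted part checks nothing, so groups are called by their labels. Of 13 markers of T cells and T-ALL, Lck is named for no probe set in the annotation used here. The other 12 all passed the filter on dim probe sets. Their mean levels were 12.02 to 12.12 in Tamoxifen arrays and 12.09 to 12.24 in Vehicle arrays. Array correlations lay between 0.991 and 0.996 over all probe sets.

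No polyamine probe set was called changed between the groups. By limma with line as a block, 0 of 7 passed an adjusted p of 0.05, against 5.85% of all 15252 probe sets tested. All 7 had passed the filter on dim probe sets. At an unadjusted p under 0.05 there were 2 of 7, both of Odc1, against 23.3% of all. Because the genes were chosen with results of this contrast known, their treatment values are given as a description, and these counts support nothing. The groups overlapped for all 7, while they did not overlap for 23.4% of all probe sets. The median difference over the 7 was -0.05, against 0.03 over all tested.

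In the synthesis arm, Odc1 and Srm were lower in the Tamoxifen array of each line, by small amounts. Odc1 probe set 10394770 was at 10.29, 10.65 and 10.70 in Tamoxifen arrays of lines 14843, 14844 and 14846, against 10.43, 11.01 and 10.82 in Vehicle arrays. Probe set 10582295 was at 10.31, 10.64 and 10.70 in Tamoxifen arrays, against 10.43, 10.91 and 10.83 in Vehicle arrays. The pair thus gave nearly the same levels, with at most 0.10 log2 units between them on any array, and the annotation lists the same 7 accessions for both, so they are not independent measurements. Which genomic copy each one reads was not analysed here. The fitted difference was -0.20 ± 0.07 for 10394770 and -0.18 ± 0.06 for 10582295 (SE, n = 3 lines), a mean level 13.2% and 11.5% lower in Tamoxifen arrays. Line 14844 had the largest difference, -0.36 and -0.27, while the other lines lay between -0.14 and -0.12. Without line 14844 both probe sets gave -0.13. By absolute size the differences stood at the 83.0 and 78.6 percentiles of all probe sets tested, whose median absolute difference was 0.09.

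Srm was at 11.93, 12.16 and 12.14 in Tamoxifen arrays of the 3 lines, against 11.99, 12.34 and 12.22 in Vehicle arrays. Line 14843 was lowest in both groups, as for Odc1. The difference was -0.11 ± 0.05 (SE), widest in line 14844, at -0.18, with -0.06 and -0.08 in lines 14843 and 14846, and it was -0.07 without line 14844. The 3 probe sets of Odc1 and Srm were the members that were lower in all 3 lines, as were 20.1% of all probe sets tested. None of the 7 was higher in all 3 lines, against 28.3% of all.

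**Figure D1:**
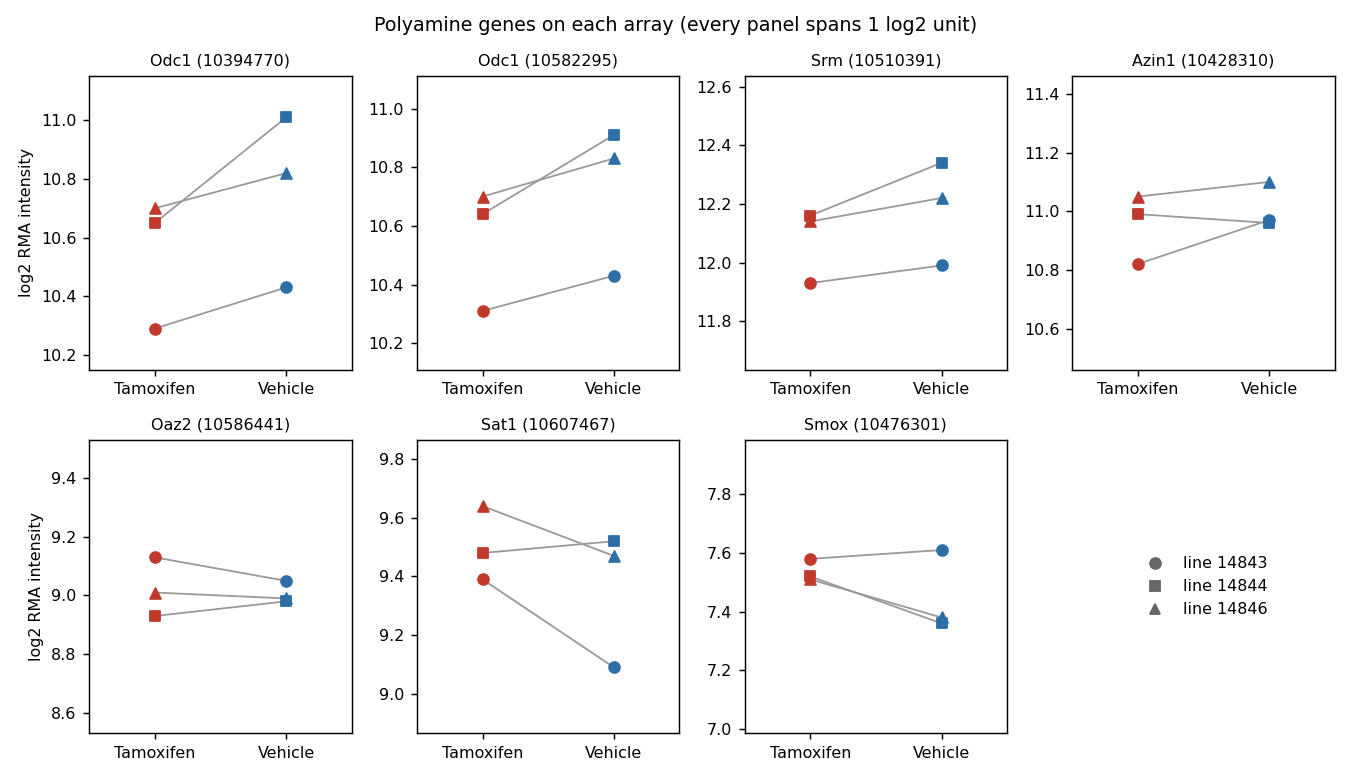
Log2 RMA intensity (vertical axes, each spanning 1 log2 unit) of the 7 probe sets in Tamoxifen and Vehicle arrays, with a grey line joining the arrays of each leukemia. Both Odc1 panels and Srm slope the same way in each line and line 14843 lies lowest, at 10.29 to 10.43 for Odc1, while the Azin1, Oaz2, Sat1 and Smox panels have lines that slope both ways.

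The regulators of Odc1 showed no shared direction across lines. Azin1, which shields Odc1 from antizyme, was at 10.82, 10.99 and 11.05 in Tamoxifen arrays, against 10.97, 10.96 and 11.10 in Vehicle arrays, a difference of -0.05 ± 0.06 (SE). Line 14843 had the largest Azin1 difference, -0.15, and line 14844 had 0.03. The antizyme Oaz2 was at 9.13, 8.93 and 9.01 in Tamoxifen arrays, against 9.05, 8.98 and 8.99 in Vehicle arrays, a difference of 0.01 ± 0.05. Its within-line differences of 0.08, -0.05 and 0.02 put it at the 9.5 percentile of absolute size, near the bottom of all probe sets tested.

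The breakdown enzymes had positive fitted differences, with 1 line of the 3 just below zero in each case. Sat1 was at 9.39, 9.48 and 9.64 in Tamoxifen arrays, against 9.09, 9.52 and 9.47 in Vehicle arrays, a difference of 0.14 ± 0.08 (SE). It was 0.29 and 0.17 higher in the Tamoxifen arrays of lines 14843 and 14846 and differed by -0.04 in line 14844, and the fitted difference was 0.06 without line 14843 and 0.23 without line 14844. Smox was at 7.58, 7.52 and 7.51 in Tamoxifen arrays, against 7.61, 7.36 and 7.38 in Vehicle arrays, a difference of 0.09 ± 0.06. That of Smox was 0.05 without line 14844, 0.06 without line 14846 and 0.14 without line 14843. Smox was dim, with intensities of 165 to 196, below the array medians of 202 to 208. Its Vehicle values spread more (SD 0.14) than its Tamoxifen values (SD 0.04), with line 14843 above the other Vehicle arrays. The lines with a negative difference were different ones, 14844 for Sat1 and 14843 for Smox.

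Set against each other within a line, the difference of Odc1 minus that of Sat1 was negative in all 3 lines. It was -0.43, -0.32 and -0.29 in lines 14843, 14844 and 14846 with Odc1 probe set 10394770, and -0.42, -0.23 and -0.30 with 10582295. The pair was picked after the values were seen, so this describes unequal differences on the same arrays and was not tested.

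**Figure D2:**
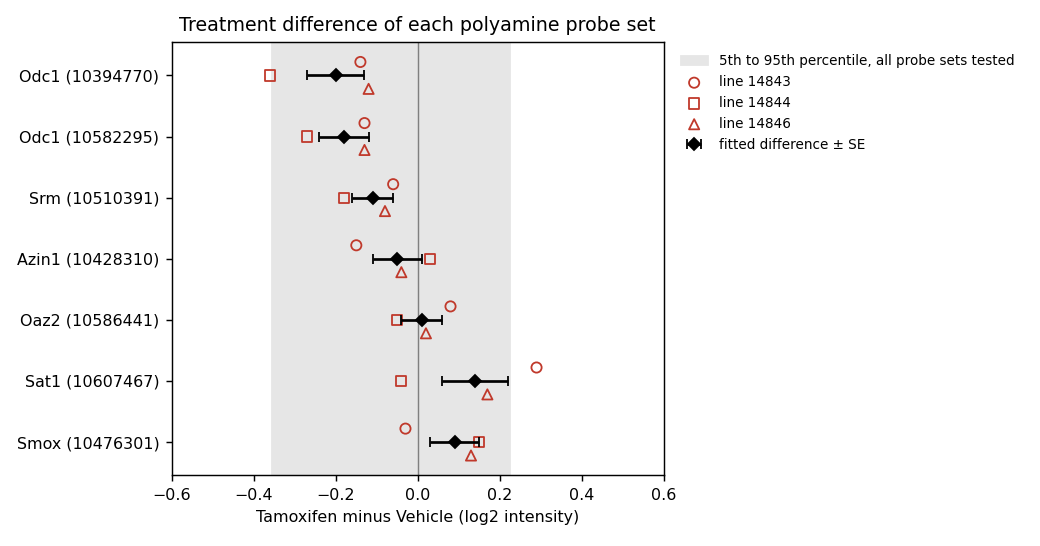
Tamoxifen minus Vehicle difference in log2 intensity (horizontal axis) of each probe set, as the fitted value with its SE (diamonds) and in each line (open symbols), over the range from the 5th to the 95th percentile of all probe sets tested (grey). The fitted values run from -0.20 for Odc1 to 0.14 for Sat1, and all lie inside the grey range.

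The leukemias were also compared with each other, averaging each line over both treatments, which does not use the treatment contrast. Odc1 was lowest in line 14843, but no polyamine probe set passed the threshold. Odc1 probe set 10394770 averaged 10.36 ± 0.10, 10.83 ± 0.25 and 10.76 ± 0.08 in lines 14843, 14844 and 14846, and probe set 10582295 averaged 10.37 ± 0.09, 10.78 ± 0.19 and 10.77 ± 0.09 (SD, n = 2 arrays). Both arrays of line 14843 lay below all 4 arrays of the other lines. The spans of 0.47 and 0.41 between line means compare with a median span of 0.14 over all probe sets tested. The limma F test of line gave adjusted p-values of 0.079 and 0.067, so the difference did not hold over all probe sets tested.

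Srm and Sat1 were also lowest in line 14843. Srm averaged 11.96 ± 0.04, 12.25 ± 0.13 and 12.18 ± 0.06 in lines 14843, 14844 and 14846 (SD, n = 2 arrays), with a limma F adjusted p of 0.15. Sat1 averaged 9.24 ± 0.21, 9.50 ± 0.03 and 9.55 ± 0.12, with a limma adjusted p of 0.24. Smox and Oaz2 ran the other way, with both arrays of line 14843 above the 4 others, at 7.60 against 7.44 and 7.45 for Smox and 9.09 against 8.96 and 9.0 for Oaz2. Their adjusted p-values by limma were 0.39 and 0.48, and that of Azin1 was 0.38. For 4 of the 7 probe sets line 14843 lay below all other arrays, as for 10.8% of all probe sets, and for 2 it lay above, as for 11.1%. The 4 include both Odc1 probe sets, and line 14843 was singled out after the values were seen, so these counts support nothing.

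By the F test of line, 0 of 7 probe sets passed an adjusted p of 0.05 in limma, against 2.94% of all. At an unadjusted p under 0.05 there were 4, those of Odc1, Srm and Sat1, against 18.8% of all. Lines 14844 and 14846 were close for Odc1, at differences (14846 minus 14844) of -0.07 ± 0.08 and -0.01 ± 0.07 (SE). The differences of line 14844 over line 14843 were larger, at 0.47 ± 0.08 and 0.41 ± 0.07, with limma adjusted p-values of 0.10 for both, in a contrast that called 0.951% of all probe sets. The difference of line 14846 over line 14843 was 0.40 ± 0.08 and 0.40 ± 0.07, with limma adjusted p-values of 0.075 and 0.051, so neither passed in a contrast that called 3.29% of all probe sets.

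Markers of other cells also varied between lines. Of 6 neutrophil markers above the filter, with 1 more below it, Ngp and S100a8 differed between lines, and the mean level of the 7 was 7.37, 8.10 and 7.46 in lines 14843, 14844 and 14846. It spanned 7.39 to 8.23 in Tamoxifen arrays and 7.36 to 7.97 in Vehicle arrays, so the ranges of the groups overlapped. Of 4 tested NK cell markers, Klrb1c (7.04, 7.64 and 10.37 in the 3 lines) and Nkg7 (7.15, 7.18 and 8.67) differed between lines. Gzma (12.34, 12.69 and 12.71) and Prf1 (9.13, 8.83 and 9.03) did not pass, and Ncr1 was below the filter. The list means, which include Ncr1, were 8.29, 8.42 and 9.30. Lyz2 of the 2 tested monocyte markers and Col1a2 of the 5 stroma markers differed too. These 6 of the 33 tested markers of all lists stand against 2.94% of all probe sets past the line test. The 33 include 12 markers of T cells and T-ALL, 2 of B cells and 2 of erythroid cells, with 0 past it in each list. Between treatments limma called 0 of the 33, against 5.85% of all, and 3 had an unadjusted p under 0.05, against 23.3% of all. In such bulk samples, fewer cells of a type and less RNA per cell cannot be told apart. The part of these markers in the levels of the polyamine genes was not tested.

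Across the 6 arrays, the level of Srm followed that of Odc1 closely. Among 15250 probe sets of other genes, Srm had the third highest Pearson correlation with Odc1 probe set 10394770, at 0.993 over 6 arrays. The 5 highest were the ribosomal protein gene relative Rps27l at 0.998, the DNA polymerase alpha subunit Pola2 at 0.996, Srm, and the proteasome subunits Psmd7 at 0.993 and Psma5 at 0.992. The dim Smox ran opposite to Odc1 at -0.93. A value of -0.9 or lower was found for 2.73% of probe sets, and one of 0.9 or higher for 1.61%. Oaz2 gave -0.74, Azin1 0.61 and Sat1 0.59. The 6 arrays share 3 lines and 2 treatments, so they are not 6 independent samples.

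**Figure D3:**
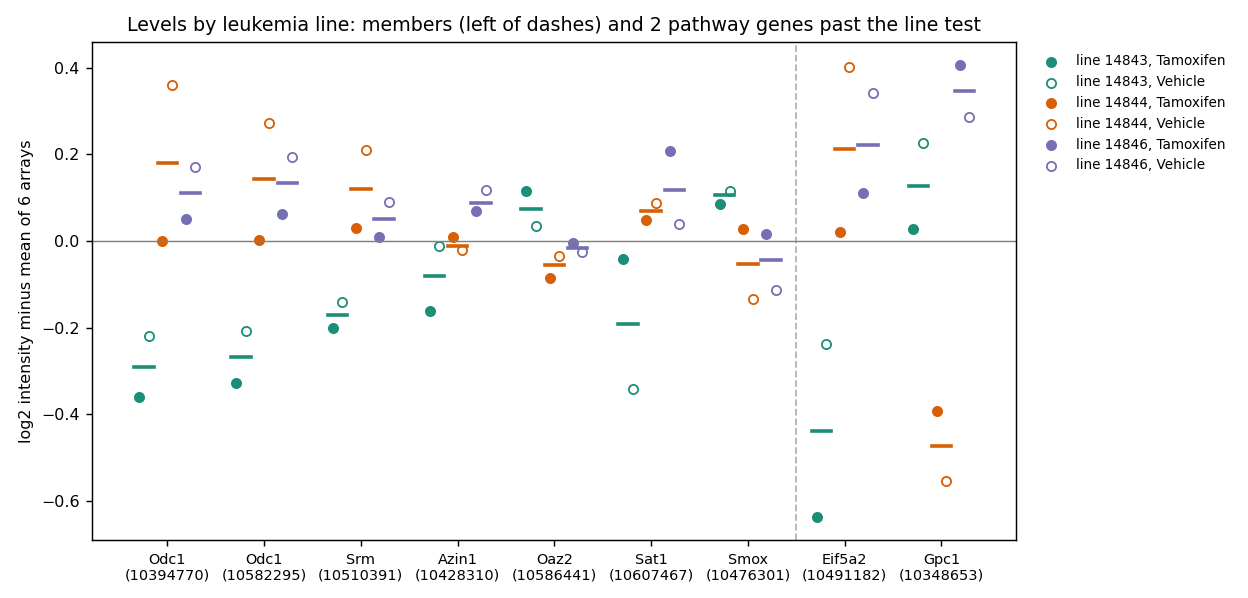
Log2 intensity minus the mean of the 6 arrays (vertical axis) for the 7 polyamine probe sets and, right of the dashes, Eif5a2 and Gpc1, with line means as bars. Line 14843 sits lowest for Odc1, Srm, Sat1 and Eif5a2, and line 14844 sits lowest for Gpc1, at 8.18 before centring.

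Among genes around the pathway, the share called was near that of all probe sets, and it is no result about them. In 6 lists with 57 genes, 41 genes on 44 probe sets were tested, and 9 further genes were too dim. By limma 2 of the 44 fell, 0 rose and 42 did not pass, a share of 4.55% against 5.85% of all probe sets (4.64% lower and 1.21% higher). At an unadjusted p under 0.05 there were 14 of 44, against 23.3% of all. The genes that fell were Eif5a2 and Mtr.

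Eif5a2 is a relative of eIF5A, the translation factor that is activated by hypusine, a modified lysine made from spermidine. It was at 7.96, 8.62 and 8.71 in Tamoxifen arrays of lines 14843, 14844 and 14846, against 8.36, 9.0 and 8.94 in Vehicle arrays. It was lower in each line while the groups overlapped. The Vehicle value of line 14843, 8.36, lay below the Tamoxifen values of the other lines. Eif5a2 fell by 0.34 on the log2 scale (SE 0.06). The limma adjusted p was 0.039, and 0.57 without line as a block, which ends the call. Without line 14843 or 14844 the call was also lost, at adjusted p-values of 0.12 and 0.21. Eif5a2 also had the smallest p of the 44 probe sets for a difference between lines, averaging 8.16, 8.81 and 8.82 in lines 14843, 14844 and 14846, with a limma F adjusted p of 0.020. That call was lost without line 14843, at 0.97, and without line 14844, at 0.062.

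The other 3 genes of hypusine formation and eIF5A did not pass. Eif5a had 2 probe sets, which differed by 0.11 ± 0.05 and -0.02 ± 0.05 (SE). Dhps and Dohh, the enzymes that make hypusine, differed by 0.13 ± 0.08 and -0.11 ± 0.07. The list's median of -0.02 compares with 0.03 over all probe sets tested. These 3 genes fall outside the rule for named genes and are given because their list was small.

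Methionine feeds the pathway through S-adenosylmethionine, and of 10 tested genes of its cycle and salvage Mtr fell. Mtr, methionine synthase, was at 10.06, 10.28 and 10.25 in Tamoxifen arrays, against 10.35, 10.50 and 10.60 in Vehicle arrays. Every Tamoxifen value lay below every Vehicle value, as in 11.1% of all probe sets. It fell by 0.28 on the log2 scale (SE 0.05). The limma adjusted p was 0.045, and 0.20 without line as a block. Leaving out any 1 line ended the call, at adjusted p-values from 0.12 to 0.17. At an unadjusted p under 0.05 the list held 7 of 10 probe sets, 4 lower and 3 higher, against 23.3% of all, and its median was 0.07.

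In the other 4 lists no gene was called between treatments by limma. Among 9 tested genes of arginine and ornithine supply, argininosuccinate lyase (Asl) and the cationic amino acid carrier Slc7a1 came closest, at 0.36 ± 0.09 and 0.32 ± 0.09 (SE), with limma adjusted p-values of 0.093 and 0.11. Their groups did not overlap, as in 12.3% of all probe sets in that direction. Asl was at 9.67, 9.58 and 9.69 in Tamoxifen arrays, against 9.08, 9.23 and 9.55 in Vehicle arrays, with the widest difference in line 14843. Slc7a1 was at 10.77, 10.58 and 10.78 in Tamoxifen arrays, against 10.23, 10.46 and 10.49 in Vehicle arrays. Slc7a1, too, had its widest difference in line 14843, and the list's median was 0.07.

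Among 7 tested probe sets of polyamine transport, Slc12a8 and Slc3a2, the heavy chain of amino acid carriers, had the smallest p, at -0.16 ± 0.07 and 0.12 ± 0.08 (SE) and limma adjusted p-values of 0.22 and 0.38. Gpc1, a heparan sulfate proteoglycan linked to polyamine uptake, differed between lines, at 8.78 ± 0.14, 8.18 ± 0.11 and 9.0 ± 0.09 in lines 14843, 14844 and 14846 (SD, n = 2 arrays). Its limma F adjusted p was 0.038, and 0.37 without line 14844 and 0.090 without line 14846. Eif5a2 and Gpc1 were the 2 of 44 probe sets past the line test, a share of 4.55% against 2.94% of all probe sets.

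Of 12 tested probe sets for the Myc network and other regulators of Odc1, 0 passed in limma, against 5.85% of all, and 4 had an unadjusted p under 0.05, against 23.3% of all. The smallest p-values belonged to the 2 probe sets of Psmc1, a base subunit of the proteasome that degrades Odc1, at 0.17 ± 0.05 and 0.19 ± 0.06 (SE) and limma adjusted p-values of 0.13 and 0.14. Myc, named here outside the rule for its link to Odc1, was at 12.49, 12.67 and 12.69 in Tamoxifen arrays, against 12.86, 12.96 and 12.65 in Vehicle arrays. It was lower in lines 14843 and 14844 and 0.04 higher in line 14846. Its difference was -0.20 ± 0.09 with a limma adjusted p of 0.25. The part of Myc in the level of Odc1 was not tested. The Odc1 relative Azin2 was the single tested gene of its list, at 0.04 ± 0.06 with a limma adjusted p of 0.74.

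**Figure D4:**
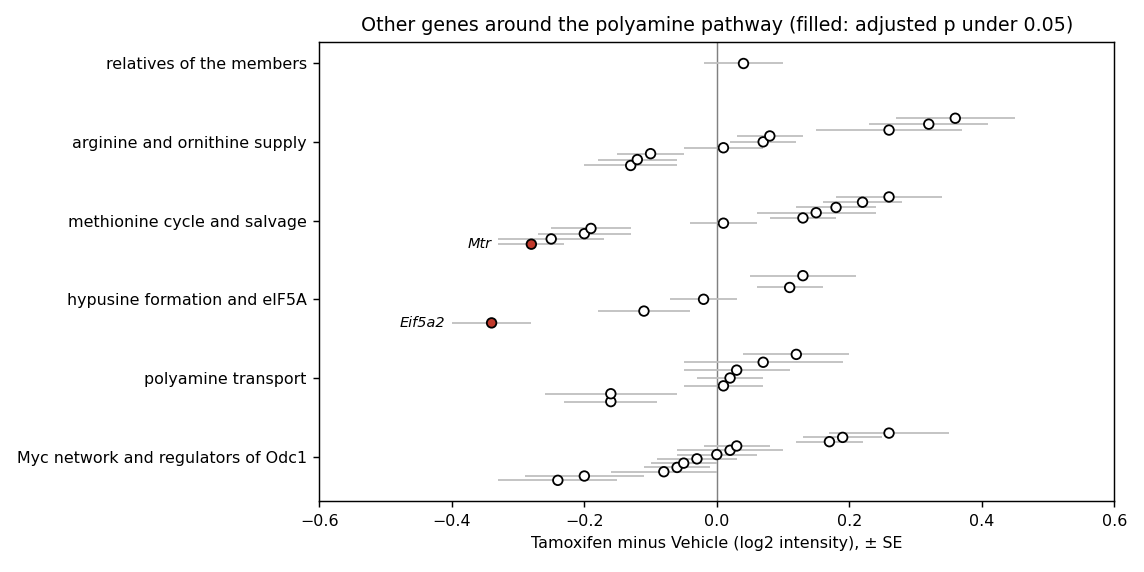
Tamoxifen minus Vehicle difference in log2 intensity with its SE (horizontal axis) of the 44 tested probe sets in 6 lists of genes around the polyamine pathway. The 2 filled points, Eif5a2 at -0.34 and Mtr at -0.28, passed an adjusted p of 0.05, and the open points did not.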

How the data were processed

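Total RNA of sorted leukemia cells (Trizol, 200 ng labelled with the Ambion WT kit, per the labels' protocols) was measured on 6 one-colour arrays. Per the submitters' processing notes, the deposited intensities came from RMA in Affymetrix Expression Console 1.1. RMA equalises intensity distributions, so an overall shift between arrays is removed. Array medians of 202 to 208 show a linear scale. Log2 was taken here. Single-symbol probe sets with a mean at or above the 30th percentile (6.70) were tested, 15252 in all, every probe set separately. The sources used here give no probe positions.

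limma 3.58.1 in R 4.3.3 (lmFit, eBayes) was fitted with line and treatment as terms, two-sided, with Benjamini-Hochberg adjustment over all probe sets tested. Line was a block because the series design has each leukemia transplanted and then treated either way, and deviations of same-line arrays from their group means correlated at 0.62, 0.67 and 0.67. Residual degrees of freedom were 2, plus 3.43 from moderation. In a single simulated data set, 200 of 15252 probe sets were changed, and noise was independent between probe sets. There, 44% of changes of 0.3, 96% of 0.5, 98% of 1 and 100% of 2 (log2) were called, and 8.6% of the calls were false. The real data had 892 calls, more than the number changed in the simulation, so these shares may not carry over.

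The members, gene lists, tests and naming rule were chosen with earlier results of these data known. The rule named every member, Zfx, up to 4 called genes per list or else the 2 with the smallest p, and the 5 probe sets most correlated with Odc1. Alternatives covered the block, the filter, median centring, trended and robust moderation, 1 probe set per gene, and each line left out.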

Additional observations from a re-analysis of the deposited data

How the results depend on the processing

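Calls of polyamine probe sets between treatments or between lines were 0 under every alternative that was run. Of the F tests of line, that of Odc1 came closest, with an adjusted p of 0.057 under trended and robust moderation. Over all probe sets 892 were called between treatments, 707 lower and 185 higher. Without line as a block (the pairing of arrays by leukemia) there were 287, 270 lower and 17 higher, and lower calls made up 94.1% against 79.3%. Leaving out 1 line gave 39 to 623 calls, 37 to 472 lower and 2 to 151 higher, the fewest without line 14844. Calls between lines numbered 448, and 177 to 463 with 1 line left out. Of the pathway genes, the 2 called between treatments became 0 without the block, 1 with trended and robust moderation, where Mtr gave 0.051, and 0 to 1 with 1 line left out. The 2 called between lines became 1 without the filter on dim probe sets, where Gpc1 gave 0.052, 4 with trended and robust moderation, and 0 to 2 with 1 line left out. The cause of these shifts was not tested, except that fits without a line have fewer arrays. The number of arrays limits the precision. In the simulation, differences of 0.3, larger than those of Odc1, were called in 44% of cases. It changed 200 probe sets, fewer than the 892 called here, so that share may not carry over.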
